A study of Mus musculus with 30 samples.

Results

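Genes of sterol and fatty acid synthesis under SREBP, the family of sterol-regulated transcription factors, were followed in 30 RNA sequencing libraries of mouse embryonic fibroblasts (MEFs). The list named 32 genes, and a gene was kept where its TPM was 1 or more in at least 3 of the 30 libraries. TPM is a transcript abundance that is divided by transcript length and scaled to a fixed sum in each library. Of the 32 genes 29 passed, among 14093 genes of 34724 in the table that passed the same filter, and all 29 were at 1 TPM or more in all 30 libraries. Abcg1, an exporter of cellular cholesterol, did not pass, with at most 0.144 TPM and a value above 0 in 4 libraries. The stearoyl-CoA desaturase genes Scd1 and Scd2 were not analysed here.

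All cells were Cry2-/- and carried stably overexpressed c-MYC. CRY2 represses transcription in the circadian clock. The constructs put back were the empty vector (EV), the wild-type protein (WT), and CRY2 carrying the change D325H, S510L or F428D. Each of these 5 constructs was plated at 150 cells per well (low density) and harvested on day 14, or at 500 cells per well (high density) and harvested on day 11, so the densities differ in time as well. Growth was in 3% oxygen and 15% serum, and each of the 10 groups had 3 biological replicates, each made from 2 combined wells. Whether the lines of 1 construct were made independently is not stated, so constructs and cell lines cannot be told apart here, and all p-values measure the spread between these libraries alone. Since whole wells were sequenced, a smaller number of cells of a kind and less RNA per cell cannot be told apart either.

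As background, SREBP2 (Srebf2) mainly drives the genes of cholesterol synthesis and uptake, and SREBP1 (Srebf1) mainly those of fatty acid synthesis. Both are made as membrane proteins of the endoplasmic reticulum, where INSIG proteins hold their escort SCAP while sterols are plentiful. When sterols run low, SCAP carries SREBP to the Golgi, proteases free its active part, and that part enters the nucleus. Insig1 and Srebf2 are themselves targets of SREBP. Transcript levels show neither the cleavage of SREBP nor the sterol content of a cell, and neither was measured here.

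The targeted gene was checked first. Cry2 stood at 3.82 to 5.55 TPM in the 6 EV libraries and at 13.2 to 161 TPM in the 24 libraries with a CRY2 construct, the S510L libraries being the lowest of these at 13.2 to 39.5. Trp53, which encodes the tumour suppressor p53, was at 214 to 330.1 TPM in all EV, WT and F428D libraries, at 15.4 to 131 in the D325H libraries and at 24.7 to 111 in the S510L libraries. Fibroblast markers (10 of 10 measured) summed to 7943 to 16718 TPM, mostly Vim (median 6429), Fn1 (1728) and collagens. Thy1, Lum and Dcn, on the same list, were low, with medians of 1.98, 1.43 and 1.89 TPM. Lum reached 1 TPM in 17 and Dcn in 18 of the 30 libraries. The 6 macrophage markers summed to 1.28 to 6.98 TPM, nearly all of it Cd68, which was at 1 TPM or more in all 30 libraries (highest 6.76); Adgre1 and Tyrobp were at 0 in all 30, and Ptprc, Csf1r and Itgam reached at most 0.314. Endothelial markers (6) summed to at most 1.06 TPM. The 8 epithelial markers summed to 1.37 to 96.1 TPM, most of the highest sums being Krt18, with wide spreads within the low-density groups of EV (6.04 to 96.1) and WT (7.51 to 75.5). Adipocyte markers, which matter for lipid genes, summed to 84.2 to 283 TPM (11 of 12 in the table), with Pparg, Fabp4, Lpl, Cebpa and Plin4 above 0 in all and Lep at 0 in 29 libraries. Liver markers summed to 8.70 to 14.6 TPM in S510L high and 10.1 to 12.9 in F428D high, and to at most 1.38 in every other library. Between 12182 and 12655 genes reached 1 TPM in a library, and genes above 0 numbered 16258 in D325H high 3, 15910 in F428D high 2 and 18389 to 19269 in the other 28. Read depth cannot be recovered from TPM, so the counting error of the values is unknown.

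Levels differed widely between the genes (TPM, mean over 30 libraries). The 3 fatty acid enzymes ran from 30.5 (Acaca) to 149 (Fasn), the 7 mevalonate enzymes from 20.4 (Mvd) to 115 (Fdps), the 11 enzymes from squalene to cholesterol from 7.50 (Tm7sf2) to 55.3 (Msmo1), and the 5 SREBP genes and regulators from 23.6 (Insig2) to 91.8 (Srebf2). The sterol transport genes were low, with Stard4 at 12.8 and Npc1 at 11.7, and so was the exporter Abca1 at 6.49.

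Most genes of the list had their highest mean with S510L at low density. For 21 of the 29 genes, the fatty acid enzyme Acaca among them, the highest of the 10 group means was that of S510L low. For 12 genes the lowest was that of WT high. These 2 counts were not made for all genes, so they do not by themselves set the list apart. Insig1 ran from a group mean of 17.7 TPM in WT high to 53.7 in S510L low, a ratio of 3.03, and Fdps from 78.0 to 206, whereas Ebp, a sterol isomerase, stayed between 49.7 and 59.4, a ratio of 1.19. The exceptions to S510L low as the highest group were Mvk and Tm7sf2 (D325H high), Insig2 and Abca1 (D325H low), Acly and Ebp (EV high), Scap (WT low) and Fasn (F428D low). In a test of any difference among the 10 groups 23 of 29 genes were called, against 48.9% of all genes tested; Mvk, Idi1, Tm7sf2, Ebp, Insig2 and Abca1 were not. In log2(TPM + 1), the median share of a gene's sum of squares that lay between constructs was 45.5%, against 4.48% between densities and 31.1% between libraries within a group. The constructs took the largest shares in Hmgcs1 (72.2%), Acat2 (72.2%), Srebf2 (72.0%) and Insig1 (70.6%), and small ones in Ebp (9.18%) and Insig2 (6.95%).

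**Figure D1:**
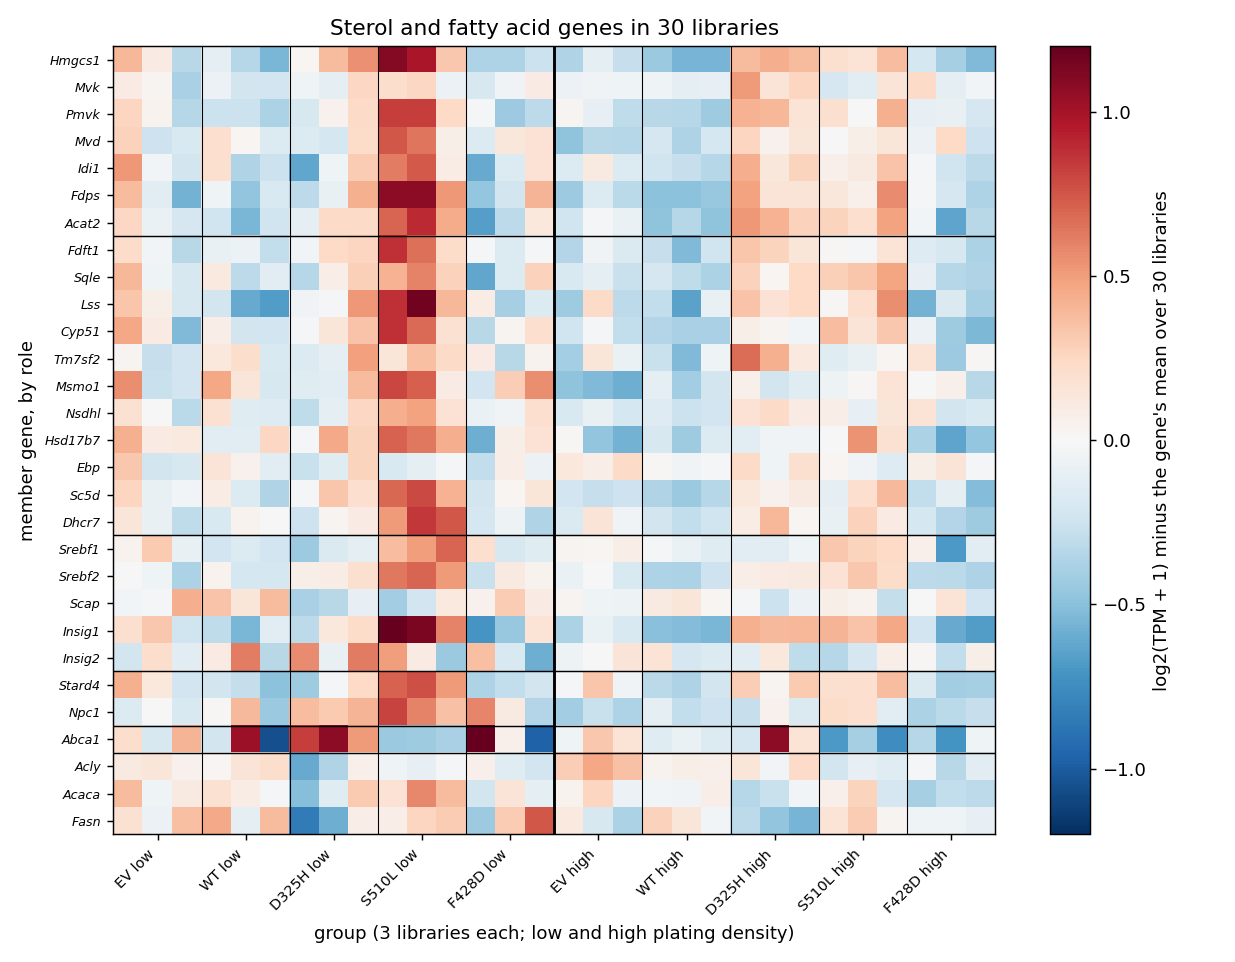
Expression of the 29 genes (rows, ordered by role) in 30 libraries (columns, 3 for each group), as log2(TPM + 1) minus the mean of the gene over the 30 libraries, with red for higher and blue for lower values. Most sterol genes form a red block in S510L low, paler in its library 3, and paler red blocks in D325H high and S510L high, but Ebp and Scap do not share the block in S510L low. Of the fatty acid genes at the bottom, Acaca is higher in S510L low as well, while Acly and Fasn stay near their means there.

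The summed TPM of the 18 sterol synthesis enzymes shows the same order by library. It was 1182, 1188 and 857 in S510L low, 615, 729 and 885 in D325H low, 718, 600.5 and 589 in WT low, 894, 669.6 and 562 in EV low, and 561, 648 and 772 in F428D low. At high density it was 749, 751 and 875 with S510L, 872, 786 and 783 with D325H, 573, 535 and 559 with WT, 584, 656 and 598 with EV, and 666, 607 and 552 with F428D. At high density all 6 S510L and D325H libraries lay above the 9 others, while at low density EV library 1 and D325H library 3 lay above S510L library 3. The 3 fatty acid enzymes summed to 319.9, 347 and 354 TPM in S510L low and 373, 318 and 377 in WT low, ranges that overlap, and to 191, 230.3 and 334 in D325H low.

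**Figure D2:**
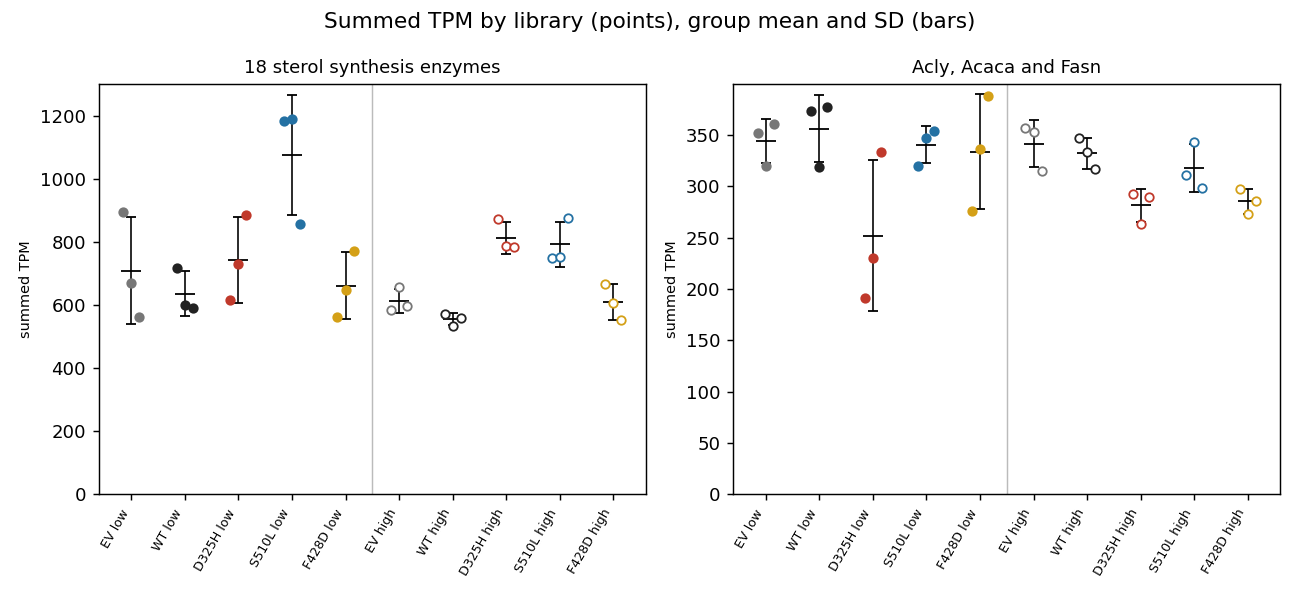
Summed TPM of the 18 sterol synthesis enzymes (left) and of Acly, Acaca and Fasn (right) in each library (points; filled for low, open for high density), with the mean and SD of each group of 3. On the left S510L low reaches 1188, and D325H high and S510L high stand above the other high-density groups; on the right D325H low holds the lowest value, 191.

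Promoters are shown for 4 genes that carry the results: Hmgcs1 and Insig1, which were among the largest differences, Srebf2, which had the smallest p in the test over groups, and Fasn, the fatty acid synthase gene, for comparison. Each sequence is the 250 bases before the annotated start (RefSeq, GRCm38.p6), 5′ to 3′ on the strand of the gene, with motif matches in capitals. The motifs were the sterol regulatory element TCACNCCAC bound by SREBP, the E-box CACGTG bound by CLOCK:BMAL1 and by MYC, the NF-Y motif CCAAT and the SP1 motif GGGCGG, each searched on both strands. The windows lie at chr13:119690101-119690350 (Hmgcs1), chr5:28071162-28071411 (Insig1) and chr15:82147019-82147268 (Srebf2) on the plus strand, and at chr11:120824548-120824797 (Fasn) on the minus strand, each just upstream of the first exon.
Hmgcs1: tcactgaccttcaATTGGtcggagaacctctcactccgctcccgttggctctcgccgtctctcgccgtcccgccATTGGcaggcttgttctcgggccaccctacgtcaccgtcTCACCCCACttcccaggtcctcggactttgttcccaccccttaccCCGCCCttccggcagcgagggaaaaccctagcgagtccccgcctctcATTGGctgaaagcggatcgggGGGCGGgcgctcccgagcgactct
Insig1: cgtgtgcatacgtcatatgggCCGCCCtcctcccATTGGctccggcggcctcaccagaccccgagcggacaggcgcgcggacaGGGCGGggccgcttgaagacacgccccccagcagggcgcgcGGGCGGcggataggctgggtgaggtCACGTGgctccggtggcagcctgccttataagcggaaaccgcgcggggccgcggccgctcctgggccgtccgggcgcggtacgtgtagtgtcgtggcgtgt
Srebf2: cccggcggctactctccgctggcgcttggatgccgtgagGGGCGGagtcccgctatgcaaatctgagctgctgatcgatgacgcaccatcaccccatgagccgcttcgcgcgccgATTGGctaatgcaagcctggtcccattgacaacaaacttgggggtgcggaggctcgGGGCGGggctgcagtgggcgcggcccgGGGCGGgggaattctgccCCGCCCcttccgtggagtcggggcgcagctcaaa
Fasn: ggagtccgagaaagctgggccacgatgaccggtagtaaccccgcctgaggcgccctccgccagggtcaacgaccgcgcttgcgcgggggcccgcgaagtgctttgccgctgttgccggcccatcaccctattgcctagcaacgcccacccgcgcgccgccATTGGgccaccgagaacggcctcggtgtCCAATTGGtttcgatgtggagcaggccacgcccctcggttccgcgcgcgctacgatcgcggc

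The Hmgcs1 window holds 1 sterol regulatory element match, 137 bases before the start, with 3 NF-Y and 2 SP1 matches. Insig1 has 1 E-box, 1 NF-Y and 3 SP1 matches, Srebf2 has 1 NF-Y and 4 SP1 matches, and Fasn has 3 NF-Y matches, 2 of which overlap as CCAATTGG. Windows that also take in the 50 bases after the start were found for 24 of the 32 genes, and not for Fdps, Fdft1, Sqle, Stard4, Npc1, Abcg1, Scd1 and Scd2. NF-Y matches were in 83.3% of the 24 genes against 41.1% of all 27025 genes with a window, and SP1 matches in 87.5% against 38.2%. E-boxes were in 25.0% (Hsd17b7, Abca1, Insig1, Dhcr7, Sc5d and Scap) against 8.09%, and the sterol regulatory element in 4.17% (Hmgcs1 alone) against 1.44%. These are matches of letters and no evidence of binding, and a window without a match says nothing about the factor. Counted by window, not by gene, the shares were 65.6% against 37.4% for NF-Y and 78.1% against 35.7% for SP1. The 27025 genes were not limited to those that passed the TPM filter, so the 2 sides also differ in expression.

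The sterol and fatty acid genes were compared between S510L and WT at each density. Differences are in log2(TPM + 1) with the standard error of the limma fit, and a gene was called at a Benjamini-Hochberg adjusted p under 0.05 over all genes tested. At low density 19 of 29 genes rose and 1 fell, against 23.3% of all genes called (15% higher); the median difference was 0.60 for the 29 genes and 0.04 for all genes. By role these were 6 of 7 mevalonate enzymes, 8 of 11 later sterol enzymes, 3 of 5 SREBP genes and regulators (with Scap lower), both sterol transport genes, and none of the 3 fatty acid enzymes or Abca1. At high density 10 rose and 0 fell, against 9.17% of all genes called (7.39% higher), with medians of 0.36 and 0.10. These were 4 mevalonate enzymes, 3 later sterol enzymes, Srebf2, Insig1 and Stard4. Of all genes called, on the list or not, 64.3% were higher with S510L than with WT at low density (50.1% after quantile normalization, 55.3% after median-ratio scaling). At high density 80.6% were higher with S510L (54.7% and 53.7%). The low-density count was 12 without S510L low 1 and 13 without S510L low 2; the high-density count was 4 or 5 without any 1 library, 4 after quantile normalization and 5 after median-ratio scaling. A fit of only the 2 groups compared called 11 genes at low and 16 at high density. The liver markers given above were higher in S510L high than in WT high, and in F428D high, where no gene of the list was called; their part in the result was not tested, nor was that of the lower Trp53.

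Other measures of the libraries moved with S510L as well. Cry2 was at 21.4, 27.5 and 13.2 TPM in S510L low and 97.9, 44.1 and 84.6 in WT low. At high density it was at 23.0, 20.4 and 39.5 TPM with S510L and 90.1, 60.9 and 66.1 with WT. The groups did not overlap at either density, so the S510L change and a lower level of the construct's transcript cannot be told apart. Transcripts of the mitochondrial genome made up 1.57% to 1.99% of TPM in S510L low against 2.28% to 3.07% in WT low, and 2.23% to 2.57% in S510L high against 3.37% to 4.47% in WT high, with no overlap at either density. The adipocyte markers summed to 99.4 to 154 TPM in S510L low and 101 to 283 in WT low, which overlap, and to 110.0 to 121 in S510L high and 148 to 202 in WT high, which do not. Of these markers Fabp4, a fatty acid carrier of adipocytes, was at 5.43, 3.10 and 9.09 TPM in S510L low and 19.4, 12.5 and 36.8 in WT low, and at 5.86, 5.18 and 7.76 in S510L high and 18.8, 22.6 and 21.7 in WT high, apart at both. Pparg and Cebpa, also on the list, overlapped WT at both densities. At high density Pparg was at 56.0, 65.4 and 48.4 TPM with S510L and 69.2, 75.9 and 57.1 with WT. Cebpa was at 18.4, 19.4 and 20.3 TPM in S510L high and 9.46, 20.2 and 9.43 in WT high. Epithelial markers summed to 6.03 to 10.9 TPM in S510L low and 7.51 to 75.5 in WT low, and to 8.53 to 14.0 in S510L high and 11.9 to 24.4 in WT high. Fibroblast markers summed to 12451 to 14207 TPM in S510L low and 8973 to 11731 in WT low. At high density they summed to 11806 to 12547 with S510L and 9982 to 10182 with WT, with no overlap at either density. Fn1, on that list, lay below WT in every S510L library at both densities. The part of these measures in the result was not tested.

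D325H was set beside WT in the same way. At low density 3 genes rose and 3 fell, against 29% of all genes called, with a median of 0.24 for the 29 genes and 0.00 for all genes: Hmgcs1, Acat2 and Lss were higher, and Scap, Acly and Fasn lower. The share of the list called was below the background, so the count alone does not set these genes apart. At high density 11 rose and 0 fell, against 10.2% of all genes called (5.46% higher), with medians of 0.42 and 0.01; they were 4 mevalonate enzymes, 4 later sterol enzymes, Srebf2, Insig1 and Stard4. The high-density count was 6, 5 and 7 without WT high 1, 2 and 3, 6 and 3 without D325H high 1 and 2, and 6 with no filter on low values. At low density it was 3 without WT low 3, and 0 in a fit of only the 2 groups. In D325H low, library 1 was the lowest of its group for 24 of the 29 genes and library 3 the highest for 26 (47.6% and 52.6% of all genes); Trp53 was at 15.4, 17.7 and 131 TPM in the 3 libraries. Without D325H low 3 the count at low density was 1 higher and 4 lower. D325H high 3, the library with few genes above 0, enters the high-density count, which was 8 without it. Fabp4 was at 2.23, 5.33 and 7.57 TPM in D325H low and 6.96, 3.82 and 9.86 in D325H high, below WT in every library, while the sums of all adipocyte markers overlapped those of WT at both densities (84.2 to 179.6 at low and 155 to 170.3 at high density). The adipocyte markers did not move together. Cebpa was at 28.7, 38.2 and 27.3 TPM in D325H high, above the 9.46, 20.2 and 9.43 in WT high, and overlapped WT at low density. Pparg, at 53.9, 41.0 and 56.6 TPM in D325H high, lay below the 69.2, 75.9 and 57.1 in WT high. Epithelial markers summed to 1.37 to 37.3 TPM in D325H low, overlapping WT low, and to 1.48 to 5.55 in D325H high, below WT high. Fibroblast markers summed to 13650 to 16718 TPM in D325H low and 10507 to 12858 in D325H high, above WT in every library. Of these Fn1 overlapped WT at low density and lay below WT at high density. The mitochondrial share was 1.98% to 2.77% in D325H low and 1.68% to 3.31% in D325H high, the latter below WT high in every library. The part of Trp53 and of these measures in the results was not tested.

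**Figure D3:**
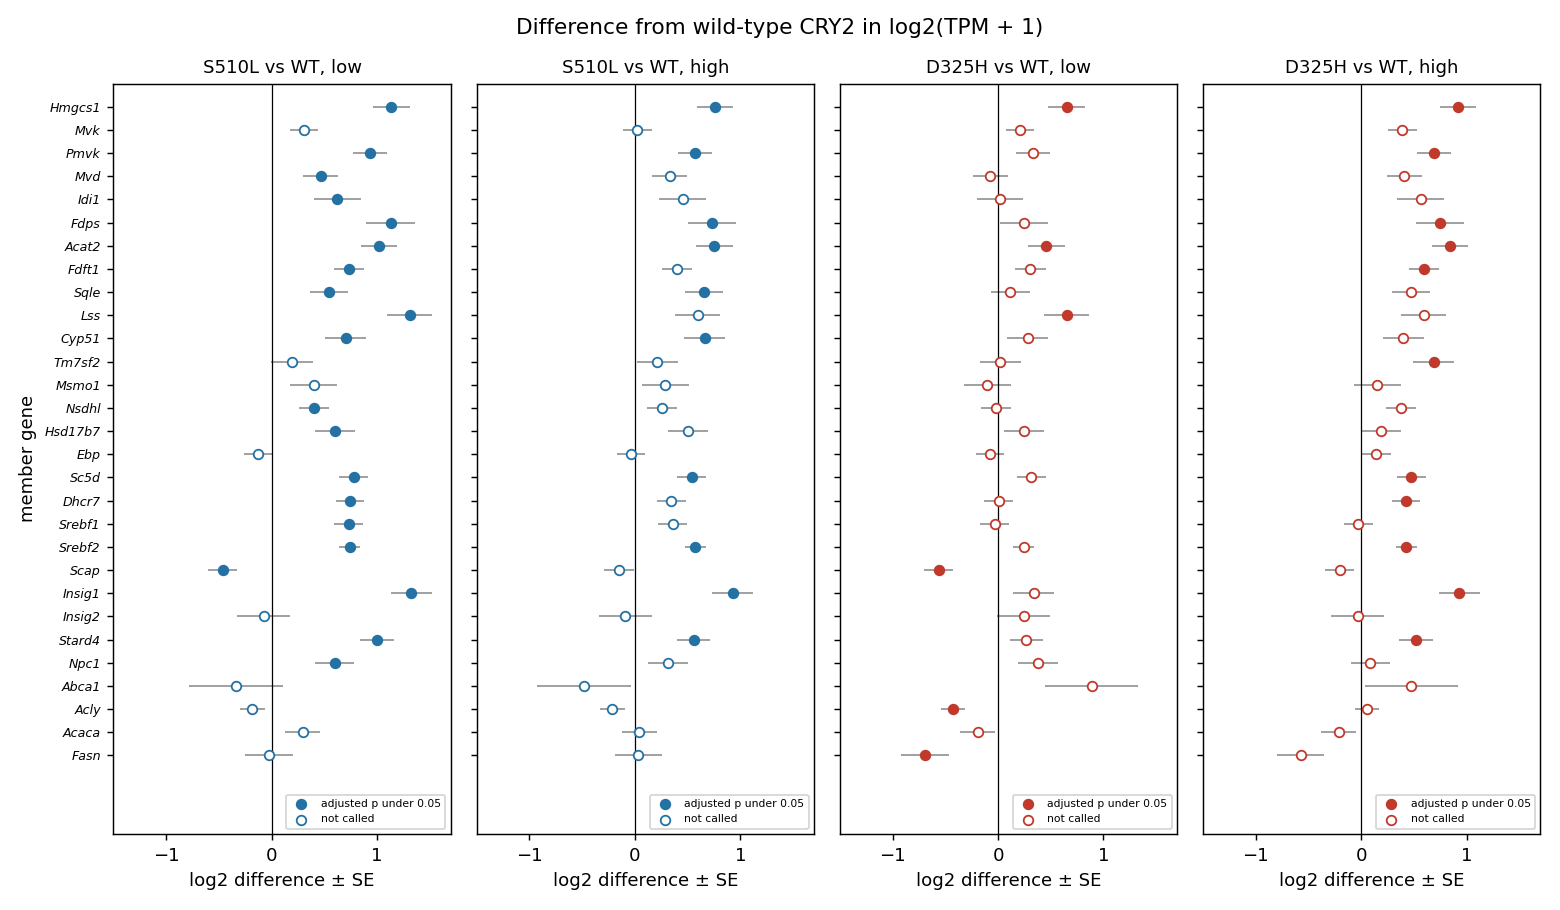
Difference from WT in log2(TPM + 1) with its standard error for the 29 genes (rows), in 4 panels for S510L and D325H at low and high density; filled points are genes with adjusted p under 0.05. Most sterol genes lie to the right of 0 in both S510L panels and in D325H at high density. Insig1 lies farthest right in these panels, at 0.93 in both high-density panels and 1.32 in S510L at low density. Fasn and Scap lie to the left in D325H at low density.

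Among the mevalonate enzymes, Hmgcs1 (HMG-CoA synthase, which makes the precursor of mevalonate) stood at 149, 136 and 85.9 TPM in S510L low and 70.0, 89.4 and 101 in D325H low, against 63.5, 53.8 and 46.7 in WT low. All libraries of both changed proteins lay above those of WT. The differences from WT were 1.14 ± 0.17 (adjusted p = 6.75e-05) with S510L and 0.65 ± 0.17 (adjusted p = 0.00766) with D325H. At high density Hmgcs1 was at 78.4, 77.2 and 88.9 TPM with S510L, 89.7, 93.0 and 89.9 with D325H and 50.2, 46.3 and 46.4 with WT. The groups did not overlap there either, at 0.76 ± 0.17 (adjusted p = 0.00762) and 0.92 ± 0.17 (adjusted p = 0.00316), and these 4 calls held whichever library was left out.

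Fdps, farnesyl diphosphate synthase, was at 231, 231 and 157 TPM in S510L low and 105, 78.1 and 96.1 in WT low, apart in every library, a difference of 1.13 ± 0.23 (adjusted p = 0.00102). In D325H low it was at 87.5, 103 and 147 TPM, overlapping WT, at 0.24 ± 0.23 (adjusted p = 0.452). High-density values were 120.0, 114 and 162 TPM with S510L, 153, 122 and 122 with D325H and 77.5, 77.1 and 79.5 with WT. Although these groups stand apart, both high-density calls (0.73 ± 0.23, adjusted p = 0.0457, and 0.74 ± 0.23, adjusted p = 0.0399) ended when any 1 library was left out.

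Acat2, a cytosolic acetyl-CoA acetyltransferase that supplies acetoacetyl-CoA to the pathway, was at 53.9, 61.8 and 45.1 TPM in S510L low, 30.4, 38.6 and 38.8 in D325H low and 27.6, 22.2 and 27.7 in WT low. No library of 1 group overlapped those of another, and the differences from WT were 1.02 ± 0.17 (adjusted p = 0.00019) and 0.46 ± 0.17 (adjusted p = 0.0491), the latter lost without any 1 library but D325H low 1. At high density Acat2 was at 39.7, 38.0 and 46.2 TPM (S510L), 47.5, 44.2 and 39.9 (D325H) and 23.2, 25.7 and 23.2 (WT), again apart from WT, at 0.75 ± 0.17 (adjusted p = 0.00758) and 0.84 ± 0.17 (adjusted p = 0.00482).

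Pmvk, phosphomevalonate kinase, was at 42.5, 42.4 and 28.0 TPM in S510L low against 19.5, 19.5 and 17.8 in WT low, at 0.93 ± 0.16 (adjusted p = 0.000229), and at 20.5, 24.5 and 27.8 in D325H low, which was not called. At high density it was at 27.1, 23.4 and 32.001 TPM with S510L, 31.8, 31.4 and 26.4 with D325H and 18.5, 18.3 and 17.2 with WT, at 0.57 ± 0.16 (adjusted p = 0.0275) and 0.69 ± 0.16 (adjusted p = 0.00968). In each called comparison the groups stood apart; the high-density calls ended without D325H high 2 for D325H, and for S510L without any 1 library but S510L high 2. The decarboxylase Mvd and the isomerase Idi1 rose with S510L at low density, by 0.47 and 0.62, close to the threshold (adjusted p = 0.0445 and 0.0442). Both calls ended without WT low 2 or 3 or S510L low 1 or 2. Mvk, mevalonate kinase, was called in none of the 23 comparisons made, at 38.1, 29.5 and 31.7 TPM in D325H high against 25.5, 24.5 and 24.7 in WT high (0.39 ± 0.13, adjusted p = 0.0648).

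**Figure D4:**
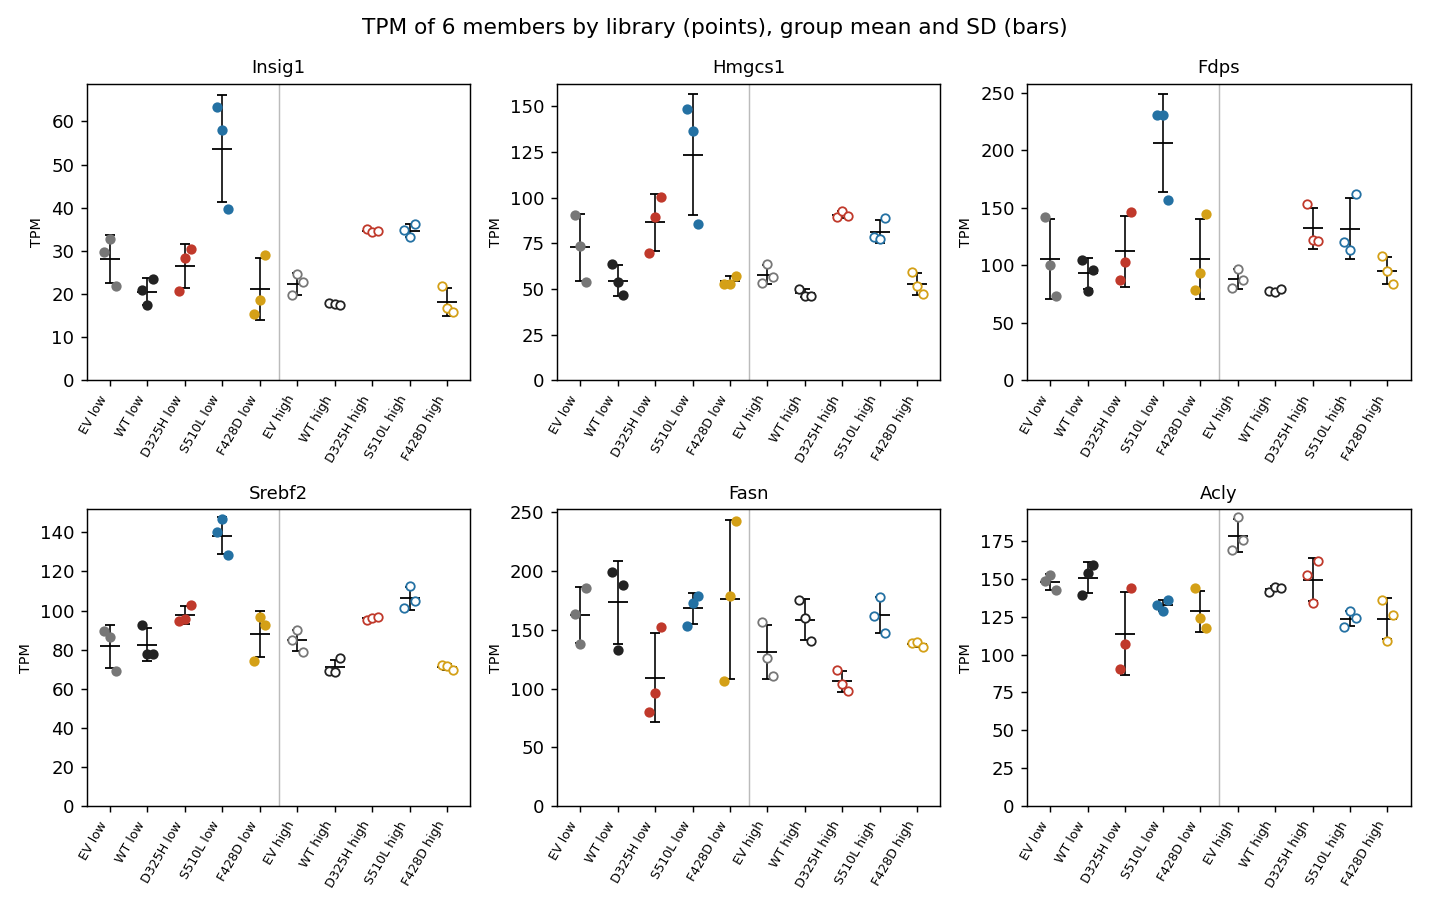
TPM of Insig1, Hmgcs1, Fdps, Srebf2, Fasn and Acly in each library (points; filled for low, open for high density) with the mean and SD of each group of 3, in 6 panels with axes from 0. S510L low stands highest for the first 4 genes, with library 3 lowest of its group, while Fasn is lowest in D325H at both densities and Acly is highest in EV high.

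From squalene onward, Lss (lanosterol synthase, which closes the sterol rings) had the largest difference of the enzymes. It stood at 39.8, 48.6 and 28.4 TPM in S510L low, 20.5, 21.1 and 30.9 in D325H low and 18.0, 13.7 and 13.0 in WT low, with every library of both changed proteins above WT, at 1.31 ± 0.21 (adjusted p = 0.000134) and 0.65 ± 0.21 (adjusted p = 0.026), the D325H call ending without WT low 2 or 3 or D325H low 3. The EV low libraries were also above WT, at 27.1, 22.3 and 18.4 TPM. At high density Lss was at 21.4, 24.5 and 31.6 TPM with S510L, 27.2, 24.0 and 25.3 with D325H and 17.1, 13.3 and 19.8 with WT, which was not called (adjusted p = 0.0833 and 0.0779).

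Fdft1, squalene synthase, was at 85.0, 73.0 and 53.6 TPM in S510L low against 42.9, 43.7 and 37.2 in WT low, with no overlap, at 0.74 ± 0.14 (adjusted p = 0.000673). With D325H at high density it was at 57.9, 55.2 and 50.7 against 37.5, 31.5 and 38.6 TPM, also apart, at 0.60 ± 0.14 (adjusted p = 0.0114), a call that ended without WT high 2 or D325H high 2. Sqle, squalene epoxidase, an oxygen-using and rate-controlling step, was at 64.6, 73.0 and 58.6 TPM in S510L low and 52.2, 38.5 and 43.6 in WT low, and at 58.6, 60.6 and 67.0 and 41.6, 38.8 and 36.6 at high density. S510L lay above WT in every library at both densities, with differences of 0.54 ± 0.18 (adjusted p = 0.0325) and 0.66 ± 0.18 (adjusted p = 0.0244); each was lost after quantile normalization and after median-ratio scaling, the low-density call without WT low 2 or 3 or S510L low 1 or 2, and the high-density call without any 1 library. Cyp51, the lanosterol demethylase, was at 91.4, 79.7 and 56.1 against 52.3, 42.3 and 41.9 TPM at low density and 64.3, 55.3 and 62.2 against 38.5, 37.5 and 37.6 at high density. Those groups were apart too, at 0.70 ± 0.19 (adjusted p = 0.0107) and 0.66 ± 0.19 (adjusted p = 0.0334), the high-density call ending without any 1 library and the low-density call without S510L low 1.

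The last steps moved less evenly. Dhcr7, which reduces the final double bond to give cholesterol, was at 41.4, 52.3 and 48.8 TPM in S510L low, 23.9, 29.3 and 30.9 in D325H low and 25.2, 29.5 and 28.8 in WT low. S510L stood apart from both, at 0.75 ± 0.13 (adjusted p = 0.000317) against WT, while D325H overlapped WT (0.01 ± 0.13, adjusted p = 0.986). At high density Dhcr7 was called for D325H (0.42 ± 0.13, adjusted p = 0.0451) and not for S510L (0.35 ± 0.13, adjusted p = 0.106). The D325H call rests on values of 30.5, 38.2 and 29.2 against 24.5, 23.2 and 24.1 TPM and was lost without any 1 library but D325H high 3. Sc5d, a sterol desaturase, was at 51.0, 55.1 and 42.2 TPM in S510L low and 33.4, 27.8 and 24.2 in WT low, apart, at 0.78 ± 0.14 (adjusted p = 0.000333). At high density it was at 28.9, 36.1 and 41.2 with S510L, 34.3, 32.6 and 33.7 with D325H and 24.2, 22.8 and 24.6 with WT, at 0.54 ± 0.14 (adjusted p = 0.017) and 0.47 ± 0.14 (adjusted p = 0.0326). The D325H call ended without any 1 library, and the S510L call without WT high 1 or 2 or S510L high 2 or 3.

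Hsd17b7, a sterol ketone reductase, and Nsdhl, a sterol dehydrogenase, rose with S510L at low density by 0.60 and 0.40 (adjusted p = 0.0236 and 0.0412). Both calls were lost without S510L low 1 or 2 or WT low 2, that of Hsd17b7 also without WT low 1 and that of Nsdhl without WT low 3. Hsd17b7 was at 13.9, 13.1 and 11.3 TPM in S510L low and 7.28, 7.26 and 9.84 in WT low. Tm7sf2, a sterol reductase, was called for D325H at high density, at 12.2, 10.2 and 8.07 against 5.92, 4.77 and 7.06 TPM (0.69 ± 0.20, adjusted p = 0.0274), and was lost without WT high 1 or 2 or D325H high 1 or 2. Its groups stood apart there, but the S510L high values of 6.53, 6.87 and 7.48 TPM overlapped WT. Msmo1, a sterol methyl oxidase, was at 94.0, 88.3 and 57.4 TPM in S510L low and 74.2, 59.1 and 46.7 in WT low, which overlap, and was not called (0.40 ± 0.22, adjusted p = 0.204). Ebp was not called in any of the 23 comparisons made.

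Both SREBP genes were higher with S510L than with D325H at low density, as tested further on. Srebf2 stood at 140.3, 147 and 128 TPM in S510L low, 94.6, 95.6 and 103 in D325H low and 92.6, 77.6 and 77.8 in WT low. S510L was above both in every library, at 0.74 ± 0.10 (adjusted p = 1.36e-05) against WT, while for D325H the difference of 0.24 ± 0.10 (adjusted p = 0.0681) was not called although its libraries lay just above those of WT. At high density Srebf2 was at 101, 113 and 105 TPM with S510L, 95.0, 96.3 and 96.8 with D325H and 69.2, 68.8 and 75.5 with WT, with no overlap, at 0.57 ± 0.10 (adjusted p = 0.000859) and 0.43 ± 0.10 (adjusted p = 0.00927), the D325H call ending without D325H high 2. Srebf1 was at 90.8, 99.8 and 115 TPM in S510L low, 51.7, 62.0 and 65.1 in D325H low and 59.8, 62.5 and 59.7 in WT low. Srebf1 rose with S510L (0.73 ± 0.14, adjusted p = 0.000615), and with D325H the difference was -0.03 ± 0.14 (adjusted p = 0.896), not called. With S510L at high density Srebf1 was at 87.9, 84.8 and 83.2 against 69.4, 66.4 and 63.2 TPM, apart but not called (0.36 ± 0.14, adjusted p = 0.111).

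Insig1, which retains SCAP and is itself an SREBP target, had the largest difference of the list with S510L at low density. It was at 63.4, 58.0 and 39.7 TPM in S510L low and 20.9, 17.4 and 23.5 in WT low, apart in every library, at 1.32 ± 0.20 (adjusted p = 4.52e-05). D325H low held 20.7, 28.4 and 30.4 TPM, which overlapped WT, at 0.34 ± 0.20 (adjusted p = 0.2). The EV low libraries, at 29.7, 32.6 and 21.8 TPM, overlapped both. At high density the values were 34.7, 33.2 and 36.1 TPM with S510L, 35.2, 34.3 and 34.5 with D325H and 18.0, 17.7 and 17.4 with WT. The changed proteins lay close to each other and well above WT, at 0.93 ± 0.20 (adjusted p = 0.00415) and 0.93 ± 0.20 (adjusted p = 0.00537), and all 3 calls held whichever library was left out.

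Insig2, the other INSIG gene, was called in no comparison and varied within groups, at 33.1, 24.6 and 16.6 TPM in S510L low and 24.7, 35.6 and 18.1 in WT low. The ratio of Insig1 to Insig2 TPM in a library was therefore 1.92, 2.35 and 2.40 in S510L low, 0.846, 0.489 and 1.30 in WT low, 1.93, 1.67 and 1.48 in S510L high and 0.695, 0.890 and 0.852 in WT high. Scap, the escort, went the other way. It was at 38.2, 43.7 and 55.8 TPM in S510L low, 38.9, 40.5 and 48.0 in D325H low and 65.4, 56.8 and 67.0 in WT low, both changed proteins lying below WT in every library. Scap fell with S510L (-0.47 ± 0.14, adjusted p = 0.0185) and D325H (-0.56 ± 0.14, adjusted p = 0.00475); the S510L call was lost without WT low 1 or 3 or S510L low 1 or 2. At high density Scap was not called (-0.15 ± 0.14, adjusted p = 0.575, and -0.21 ± 0.14, adjusted p = 0.363).

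Of the transport genes, Stard4, a carrier of sterol between membranes, was at 20.9, 21.9 and 18.1 TPM in S510L low, 8.94, 12.2 and 14.8 in D325H low and 10.5, 9.96 and 8.48 in WT low. S510L stood apart from both, at 1.00 ± 0.16 (adjusted p = 9.32e-05) against WT. At high density it was at 14.2, 14.3 and 16.3 with S510L, 15.5, 12.7 and 15.7 with D325H and 9.72, 9.36 and 10.5 with WT, at 0.56 ± 0.16 (adjusted p = 0.0294) and 0.52 ± 0.16 (adjusted p = 0.0382), and both calls ended without any 1 library. Npc1, which exports cholesterol from lysosomes, was at 20.7, 17.7 and 14.8 TPM in S510L low and 11.5, 15.2 and 8.06 in WT low, where S510L low 3 fell below WT low 2. The call (0.60 ± 0.19, adjusted p = 0.0234) was lost without WT low 1 or 3 or S510L low 1 or 2. Abca1, a cholesterol exporter controlled by LXR, the nuclear receptor for oxysterols, was at 4.00, 4.05 and 4.20 TPM in S510L low, 11.1, 13.3 and 8.68 in D325H low and 4.83, 12.8 and 2.28 in WT low. With WT low spread that widely, neither difference was called (-0.34 ± 0.44, adjusted p = 0.634, and 0.89 ± 0.44, adjusted p = 0.137).

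The fatty acid enzymes did not follow the sterol genes. Fasn, fatty acid synthase, was at 153, 173 and 179 TPM in S510L low and 199, 133 and 188 in WT low, which overlap (-0.03 ± 0.22, adjusted p = 0.955). In D325H low it was at 80.1, 95.9 and 152 TPM, where library 3 lay within the WT range, and it fell by 0.69 ± 0.22 (adjusted p = 0.0243). Leaving out either D325H low 1 or 2, or either WT low 1 or 3, ended the call. At high density Fasn was at 116, 104 and 98.1 TPM with D325H and 176, 159.7 and 141 with WT, apart but not called (-0.57 ± 0.22, adjusted p = 0.101). Acly, ATP citrate lyase, which makes cytosolic acetyl-CoA for both pathways, was at 90.3, 107 and 144 TPM in D325H low and 139.6, 153 and 159 in WT low. Library 3 again lay within the WT range, and the call (-0.43 ± 0.12, adjusted p = 0.00839) ended without D325H low 1. Acly was not called with S510L, at 133, 129 and 136 TPM in S510L low (-0.18 ± 0.12, adjusted p = 0.272). Acaca, acetyl-CoA carboxylase, was at 33.9, 45.2 and 39.5 TPM in S510L low, 20.8, 27.1 and 37.6 in D325H low and 34.3, 31.9 and 29.5 in WT low, and was not called (0.29 ± 0.16, adjusted p = 0.208, and -0.19 ± 0.16, adjusted p = 0.399). The ratio of Hmgcs1 to Fasn TPM in a library was 0.772, 0.893 and 0.917 in D325H high against 0.286, 0.290 and 0.330 in WT high.

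**Figure D5:**
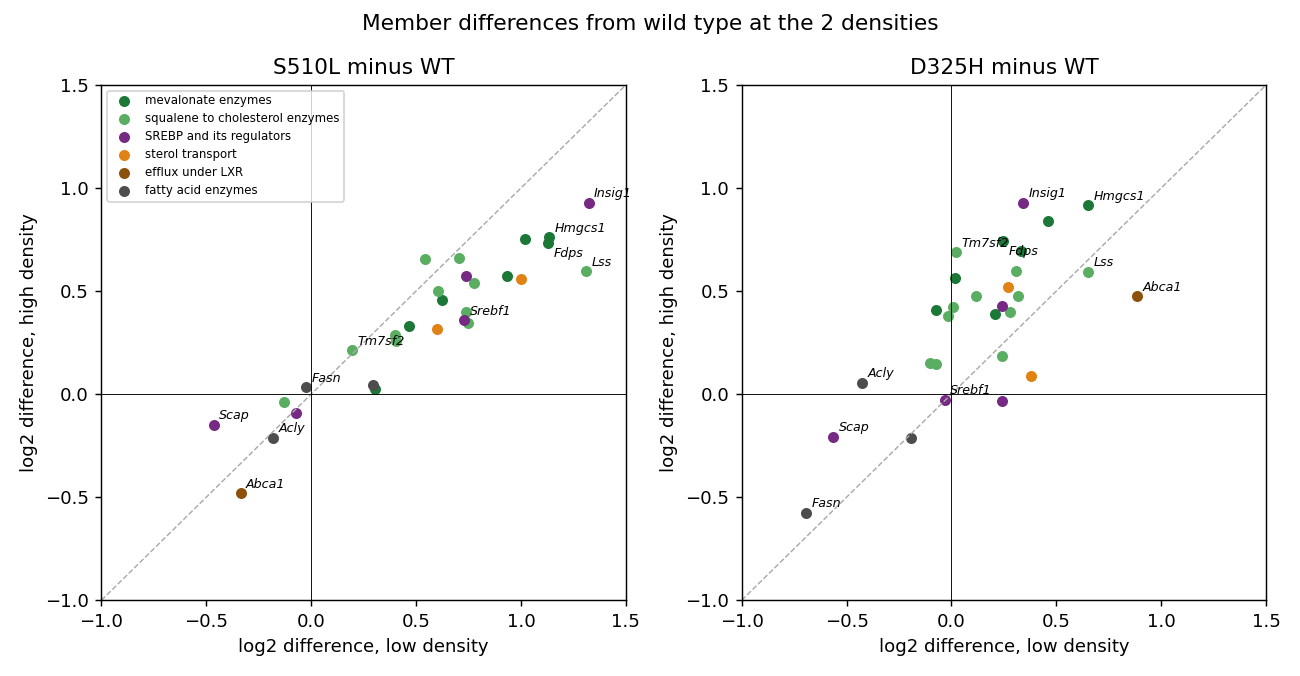
Difference from WT in log2(TPM + 1) at low density (horizontal) and at high density (vertical) for each of the 29 genes, coloured by role, for S510L (left) and D325H (right); the dashed line marks equal differences. With S510L most sterol genes lie below the line, as Insig1 does at 1.32 and 0.93, and with D325H most lie above it, as Insig1 does at 0.34 and 0.93.

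The plot of low against high differences raises the question whether the effects depended on density, which was tested directly. The difference of S510L from WT was not called as different between densities for any of the 29 genes, against 0.071% of all genes called, and 2 of the 29 had an unadjusted p under 0.05 (1282 of all genes). Those were Lss, at -0.71 ± 0.30 (unadjusted p = 0.0277, adjusted p = 0.516), and Dhcr7, at -0.40 ± 0.19 (adjusted p = 0.544). For D325H limma also called 0 of 29, against 0% of all genes, with 4 of 29 and 913 of all genes at an unadjusted p under 0.05. Acly (0.48 ± 0.16), Tm7sf2 (0.67 ± 0.28), Insig1 (0.59 ± 0.28) and Dhcr7 (0.42 ± 0.19) were the 4, with adjusted p from 0.739 to 0.759. For F428D against WT the density difference gave 0 of 29 against 0.0355% of all genes (495 at an unadjusted p under 0.05, none of the 29), and for WT against EV 0 of 29 against 0% (337, none of the 29).

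S510L and D325H were then compared with each other, a comparison added after values had been seen. At low density 10 of 29 genes were higher with S510L and 0 lower, against 7.14% of all genes called (4.8% higher), with medians of 0.48 for the 29 genes and 0.04 for all genes. Insig1 (0.98 ± 0.20), Fdps (0.88 ± 0.23), Srebf1 (0.76 ± 0.14), Dhcr7 (0.74 ± 0.13), Stard4 (0.73 ± 0.16) and Pmvk (0.60 ± 0.16) led, with adjusted p from 0.00167 to 0.0257, and Mvd, Acat2, Sc5d and Srebf2 were the other 4. The libraries of these first 6 genes, given above, do not overlap between the 2 groups, though for Pmvk only narrowly (28.01 against 27.81 TPM). These genes were picked as the largest called differences, and the share of all genes without overlap was not worked out, so this separation does not set them apart. The count turned on single libraries, at 4 and 5 without D325H low 1 and 2, 18 without D325H low 3, and 5 without S510L low 1 or 2. Insig1, Srebf1, Srebf2 and Dhcr7 stayed called without any 1 library, and Stard4 was lost without D325H low 1. A fit of only the 2 groups called 1 gene, and that one lower with S510L. At high density limma called 0 of 29 genes, against 9.71% of all genes; 6 of 29 and 3846 of all genes had an unadjusted p under 0.05, among them Srebf1 (0.39 ± 0.14, adjusted p = 0.0783) and Fasn (0.61 ± 0.22, adjusted p = 0.083). After quantile or median-ratio scaling 2 genes were called lower with S510L there. Of all genes called, 67.3% were higher with S510L at low density (49.6% and 43.6% after quantile and median-ratio scaling) and 79.1% at high density (53.1% and 48.4%). Cry2 differed between these groups too, at -2.48 ± 0.34 (adjusted p = 0.000149) at low and -1.87 ± 0.34 (adjusted p = 0.002) at high density, without overlap. Its part in the result was not tested.

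Wild-type CRY2 was compared with the empty vector, that is, with cells that still lacked the protein. No gene of the list was called in limma at low density, against 0.305% of all genes, or at high density, against 0.0284%. At an unadjusted p under 0.05 stood 5 of the 29 genes at low density (1027 of all genes) and 3 at high density (979). Stard4 was at 10.5, 9.96 and 8.48 TPM in WT low and 17.0, 13.6 and 10.4 in EV low, overlapping by 1 library (-0.44 ± 0.16, adjusted p = 0.405). Lss was at 18.0, 13.7 and 13.0 against 27.1, 22.3 and 18.4 TPM, apart (-0.57 ± 0.21, adjusted p = 0.471), and Hmgcs1 at 63.5, 53.8 and 46.7 against 90.6, 73.7 and 54.2, overlapping (-0.39 ± 0.17, adjusted p = 0.616). At high density Acly was at 142, 145 and 144 in WT and 169, 191 and 176 in EV, apart (-0.31 ± 0.12, adjusted p = 0.644), Srebf2 at 69.2, 68.8 and 75.5 against 85.0, 90.2 and 79.0 (-0.25 ± 0.10, adjusted p = 0.666), and Stard4 at 9.72, 9.36 and 10.5 against 12.2, 15.9 and 12.0 (-0.40 ± 0.16, adjusted p = 0.666). The medians of the 29 genes were -0.10 at low and -0.16 at high density, against -0.01 and -0.03 for all genes.

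F428D, compared with WT, likewise gave 0 called genes of 29 in limma at low density, against 0.0142% of all genes, and at high density, against 0.0639%. None of the 29 had an unadjusted p under 0.05, against 911 of all genes at low and 773 at high density. Insig1 was at 15.5, 18.7 and 29.2 TPM in F428D low and 22.0, 16.7 and 16.0 in F428D high, overlapping WT at low density, and with 1 library above and 2 below those of WT at high density. Hmgcs1 was at 52.8, 52.9 and 57.4 and 59.2, 51.7 and 47.2 TPM, and Srebf2 at 74.4, 96.7 and 92.6 and 72.3, 71.7 and 69.5. The smallest p at low density was that of Acly, at 144, 124 and 118 TPM (-0.23 ± 0.12, adjusted p = 0.77), and at high density that of Acaca, at 22.6, 24.2 and 24.0 against 29.3, 29.1 and 31.9 TPM (-0.34 ± 0.16, adjusted p = 0.916).

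Averaged over both densities, each changed protein was also compared with the empty vector, whose libraries enter all 3 comparisons. S510L gave 19 genes higher and 1 lower of 29, against 18.7% of all genes called (13.4% higher), with medians of 0.45 and 0.05. The largest were Fdps (0.78 ± 0.16), Insig1 (0.76 ± 0.14), Hmgcs1 (0.62 ± 0.12), Lss (0.58 ± 0.15), Npc1 (0.58 ± 0.13) and Acat2 (0.56 ± 0.12), with adjusted p from 0.000419 to 0.00827, and Msmo1 was called here (0.54 ± 0.16, adjusted p = 0.0165), though not without EV low 2 or 3 or S510L low 1. Acly was the 1 lower gene (-0.34 ± 0.08, adjusted p = 0.00472). D325H gave 4 higher and 2 lower, against 25.3% of all genes: Hmgcs1 (0.45 ± 0.12), Tm7sf2 (0.37 ± 0.14), Fdft1 (0.32 ± 0.10) and Srebf2 (0.22 ± 0.07) were higher, Fasn (-0.45 ± 0.16) and Acly (-0.33 ± 0.08) lower, with adjusted p from 0.00589 to 0.0499. The share of the list called with D325H was below that of all genes, so this count does not set the list apart. Without D325H low 3 there were 3 higher and 4 lower. The count was 11 without EV low 1, 2 without EV low 3 or D325H high 2, and 3 without D325H low 2 or EV high 1. F428D gave 2 lower and 0 higher, against 6.17% of all genes, namely Stard4 (-0.41 ± 0.11, adjusted p = 0.0305) and Acly (-0.37 ± 0.08, adjusted p = 0.0103). That share of the list was near the share of all genes, so these are single calls. The Stard4 call was lost, leaving 1 gene, without EV low 1 or 2, EV high 2, F428D low 2 or F428D high 2 or 3. Of all genes called, 71.8% were higher with S510L (54.6% and 56.3% after quantile and median-ratio scaling) and 25.8% with F428D (48.2% and 48.1%).

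High density was compared with low within each construct and on average. On average 6 genes were lower at high density and 0 higher, against 20.1% of all genes called (16.6% lower), with medians of -0.15 for the 29 genes and -0.06 for all genes. They were Msmo1 (-0.37 ± 0.10), Hsd17b7 (-0.37 ± 0.08), Npc1 (-0.37 ± 0.08), Sc5d (-0.28 ± 0.06), Fdft1 (-0.19 ± 0.06) and Srebf2 (-0.17 ± 0.04), with adjusted p from 0.00375 to 0.0376. The share of the list called was near that of all genes, so the count alone does not set these genes apart. In EV alone Msmo1 was at 38.0, 36.7 and 35.3 TPM at high density and 79.0, 44.2 and 45.6 at low, apart but not called (-0.55 ± 0.22, adjusted p = 0.609). Of all genes called 17.3% were higher at high density, against 48.8% after quantile normalization and 41.9% after median-ratio scaling, and Fdft1 and Srebf2 were lost under both and Hsd17b7 under the first. Fdft1 was also lost without any of 16 of the 30 libraries. Within EV limma called 0 of 29 genes (0.0781% of all genes; 4 of 29 and 979 of all genes at an unadjusted p under 0.05), within WT 0 (0%; 1 and 673) and within F428D 0 (1.04%; 3 and 2596). Within D325H 1 gene was higher, against 4.11% of all genes: Acly, at 152, 134 and 162 TPM at high density and 90.3, 107 and 144 at low, overlapping (0.41 ± 0.12, adjusted p = 0.0455), and lost without D325H low 1 or 2 or D325H high 1 or 3. Within S510L 1 gene was lower, against 1.04% of all genes: Dhcr7, at 26.9, 35.0 and 30.7 against 41.4, 52.3 and 48.8 TPM, apart (-0.61 ± 0.13, adjusted p = 0.0253), lost without S510L low 2 or S510L high 1 or 3. In limma 15 of 29 and 2365 of all genes had an unadjusted p under 0.05 within S510L, and 2 and 3245 within D325H. The medians were -0.35 for the 29 genes and -0.01 for all genes within S510L, and 0.16 and -0.07 within D325H. Without S510L low 3, the lowest of its group for 20 of the 29 genes (39.6% of all genes), 8 genes were lower in S510L. Of all genes called within D325H, S510L and F428D, 22.8%, 24.7% and 23.8% were higher at high density. After quantile normalization these shares were 48.4%, 44.1% and 62.7%, and after median-ratio scaling 37.4%, 35.1% and 59.7%. These scalings moved the median of all genes in F428D from -0.11 to 0.00 and -0.02.

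Another 37 genes of lipid metabolism were tested as a list of the wider pathway. With S510L at low density 8 rose and 2 fell, 27.0% of the 37 against 23.3% of all genes called, and at high density 3 rose and 1 fell, 10.8% against 9.17%. Elovl5, an elongase of polyunsaturated fatty acids, rose at both densities (0.69 ± 0.10 and 0.41 ± 0.10, adjusted p = 3.26e-05 and 0.0108), as did Me1, malic enzyme, a source of NADPH (0.53 ± 0.10 and 0.53 ± 0.10, adjusted p = 0.000585 and 0.00227). With D325H 7 rose and 5 fell at low density, 32.4% of the 37 against 29.0% of all genes, and 2 rose and 2 fell at high density, 10.8% against 10.2%. These shares are near the background, so the counts do not set the list apart, and the genes named here are single calls. In the later-added comparison of S510L with D325H, 7 of the 37 were higher with S510L and 0 lower at low density. That was 18.9% of the 37 against 7.14% of all genes called. At high density 1 was higher and 1 lower, 5.41% against 9.71%. Mylip, a ubiquitin ligase for lipoprotein receptors and an LXR target, rose with S510L at low density (1.11 ± 0.21, adjusted p = 0.000496) and with D325H at both (1.07 ± 0.21, adjusted p = 0.000785, and 0.78 ± 0.21, adjusted p = 0.0209). Npc2, the lysosomal partner of Npc1, rose with D325H at low density (0.59 ± 0.11, adjusted p = 0.000765). Lpin1, a phosphatidate phosphatase, fell with D325H at both densities (-0.69 ± 0.18, adjusted p = 0.00577, and -0.79 ± 0.18, adjusted p = 0.00782). Mbtps2, the protease that makes the last cut of SREBP, fell with D325H at low density (-0.56 ± 0.15, adjusted p = 0.0091), and Erlin1, which binds SREBP with SCAP and INSIG, rose with D325H (0.30 ± 0.08 and 0.46 ± 0.08) and S510L (0.21 ± 0.08 and 0.34 ± 0.08) with adjusted p from 0.00148 to 0.0495. None of the 37 was called for WT against EV or F428D against WT at either density, and on average over constructs 11 were lower and 0 higher at high density, 29.7% of the 37 against 20.1% of all genes called (16.6% lower).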

How the data were processed

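The values are TPM deposited by the authors for 34724 gene symbols in 30 libraries, made with kallisto (no version given) and the assembly GRCh37.p13, per the submitters' processing notes. That assembly is human, but 34095 symbols were found in a table of mouse gene names, so the transcript set is not given in the sources used here. Reads were single-end from a BGISEQ-500 at a stated 20 M per library, per the labels' protocols. Depth is unknown in TPM, and precision rests on the 3 replicates of each group.

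Values were taken as log2(TPM + 1), a scale that understates changes of low genes. The 14093 genes that reached 1 TPM in 3 or more libraries entered 1 fit of the 10 group means with limma 3.58.1 in R 4.3.3, with moderated variances that follow a trend on the mean. P-values were adjusted by Benjamini-Hochberg over all 14093 genes and called under 0.05. The steps were tested on simulated data.

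Members, roles, lists, motifs and comparisons were chosen with earlier results of these data known, and S510L against D325H was added after values were seen. Library values are given for up to 6 called genes of largest difference in a comparison, or the 3 of smallest p with fewer than 3 called, and for each role; of the 37 other genes up to 4 per comparison could be named, some of which are not reported here, while Mbtps2 and Erlin1 were chosen after their values were seen. Alternatives were pseudocounts of 0.1 and 5, no filter, a mean TPM of at least 5, quantile normalization, median-ratio scaling (from genes of mean TPM 10 or more), replicate number as a block, a fit of only the groups compared, and leaving out each library. Same-numbered replicates were not treated as paired, since the labels name no shared batch. In none of 15 pairs of groups were all 3 correlations of their deviations over 0.1. Single correlations ran from -0.229 to 0.483, so a pairing is not excluded. Promoter sequences are RefSeq's for GRCm38.p6.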

Additional observations from a re-analysis of the deposited data

How the results depend on the processing

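Filtering on a mean TPM of at least 5, a pseudocount of 0.1 and replicate number as a block moved no count of called genes by over 1.5 times. With the block, S510L against WT at low density was called for 18 genes and D325H against WT at high density for 11. With a pseudocount of 5, S510L high against low gave 3. With no filter D325H against WT at high density gave 6 and D325H high against low 0. Quantile normalization gave 4 for S510L against WT at high density, 1 for F428D against EV and 2 (lower) for S510L against D325H at high density, and median-ratio scaling 5 for the first, 1 of them lower, and 2 for the last. Fits of only the groups compared, which have fewer samples, gave 0 for D325H and 11 for S510L against WT at low density, 16 for S510L against WT at high density, 1 for F428D against EV, 0 for high against low in D325H and in S510L, 2 (higher) for S510L against D325H at high density and 1 at low density, which was lower and so reversed the direction. The cause of these shifts was not tested.

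Leaving out 1 library gave, at lowest and highest, 3 and 6 for D325H and 12 and 21 for S510L against WT at low density, 3 and 8 and 4 and 5 at high density, 2 and 11 for D325H, 16 and 20 for S510L and 1 and 3 for F428D against EV, 5 and 9 for the mean density comparison, 0 and 1 for high against low in D325H and in F428D, 0 and 8 in S510L, 4 and 18 for S510L against D325H at low and 0 and 1 at high density, and 18 and 25 for any difference among groups. Without D325H low 3, D325H against EV turned from mostly higher to mostly lower, with 7 called. The remaining comparisons gave 0 throughout. Unknown depth limits all values for low genes such as Abca1 and Tm7sf2.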
